A study of Rattus norvegicus with 20 samples.

Results

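Genes that drive the cell cycle and copy DNA were followed in liver sampled on postnatal day 4 in a study that dosed Wistar Han rat dams with PBDE-47, a brominated diphenyl ether once used as a flame retardant. The members are 40 listed genes, each represented by the brightest of the probe sets that the platform annotation assigns to it alone. A probe set is a group of short array probes for one transcript. Of the 40, 38 had such a probe set, among 14217 genes on the array, while Rrm2 and Tpx2 had none and were not measured here. The list was drawn up with earlier results of these data known, Gen1 included.

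Messenger RNA was measured on 20 Affymetrix rat genome arrays in 4 groups of 5. The dams were Wistar Han rats (Crl:WI (Han)), aged 11 to 12 weeks on arrival, and the arrays are labelled female. Dams were gavaged daily with corn oil at 5 mL/kg from gestation day 6 to postnatal day 4. Vehicle dams had corn oil alone, and the others had PBDE-47 at 0.02, 3 or 10 mg/mL, giving 0.1, 15 or 50 mg/kg per day. Liver of postnatal day 4 was sampled from the left lateral lobe. The labels link dosing to the dams and name neither the animal nor the litter behind a given liver. Since nothing says that arrays within a group are from different animals, each p-value reflects only the variation among these arrays, which may be technical.

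Hepatocyte transcripts were bright on every array, with Alb between 14.73 and 14.82 log2 units. Afp, which fetal and newborn hepatocytes express, lay between 14.21 and 14.34. Muscle or pancreas transcripts stood over 2 log2 units above the lowest array on 10 arrays, namely vehicle replicate 2, replicates 1, 2, 4 and 5 at 0.1 mg/kg, replicates 3 and 5 at 15 mg/kg and replicates 1, 3 and 4 at 50 mg/kg. After group means were taken out, the mean of the members correlated weakly with the muscle list (r = -0.19 over 20 arrays) and the pancreas list (r = -0.16). The array medians spanned 5.605 to 5.648, and the actin control probes at the 3' end exceeded those at the 5' end by 1.22 to 2.43 log2 units.

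A dividing cell first commits to copying its genome, through D and E type cyclins and the E2F transcription factors. It then copies its DNA with the MCM helicase and the PCNA sliding clamp, and divides under cyclin B with CDK1 while checkpoint proteins watch the spindle. In the newborn rat, the liver both grows by hepatocyte division and still holds blood-forming cells, among them dividing red cell precursors. Genes of the S phase are commonly under E2F factors, and genes of mitosis under the NF-Y factor at CCAAT boxes and the MuvB complex at the cell cycle genes homology region, or CHR.

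Most of the member promoters found hold some of these letters, and the windows below show replication genes beside genes of mitosis and Gen1. Promoter sequences are from RefSeq, build GRCr8, and 31 of the 40 genes matched by symbol. Ccnd1, E2f1, Mcm4, Rrm2, Ccna2, Aurkb, Foxm1, Ube2c and Tpx2 were not matched. Each line gives the 150 bases before the transcription start, 5' to 3' on the gene's strand, with capitals for motifs on either strand that lie wholly before the start. The motifs were CHR (the letters TTTGAA), the CCAAT box, and an E2F core in 4 spellings: TTTGGCG as the first, the variant TTTCCCG, a further variant TTTCGCG, and finally the spelling TTTGCCG.
Mcm6: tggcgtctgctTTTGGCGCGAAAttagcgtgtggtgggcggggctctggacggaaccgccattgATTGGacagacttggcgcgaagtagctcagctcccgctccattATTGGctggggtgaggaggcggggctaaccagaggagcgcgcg
Mcm5: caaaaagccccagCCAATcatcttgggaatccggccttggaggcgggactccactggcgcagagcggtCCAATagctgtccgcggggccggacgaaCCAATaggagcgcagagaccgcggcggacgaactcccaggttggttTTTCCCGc
Cdkn3: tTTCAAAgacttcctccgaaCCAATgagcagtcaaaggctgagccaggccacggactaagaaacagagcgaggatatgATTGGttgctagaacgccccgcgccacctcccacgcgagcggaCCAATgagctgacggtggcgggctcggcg
Ccnb2: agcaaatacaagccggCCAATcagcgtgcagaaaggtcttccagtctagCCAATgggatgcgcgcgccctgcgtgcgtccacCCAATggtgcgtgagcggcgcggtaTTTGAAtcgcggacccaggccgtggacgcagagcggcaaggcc
Prc1: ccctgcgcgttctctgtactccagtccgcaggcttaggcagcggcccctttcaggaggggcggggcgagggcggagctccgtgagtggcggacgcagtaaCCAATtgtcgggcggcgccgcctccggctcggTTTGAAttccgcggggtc
Mki67: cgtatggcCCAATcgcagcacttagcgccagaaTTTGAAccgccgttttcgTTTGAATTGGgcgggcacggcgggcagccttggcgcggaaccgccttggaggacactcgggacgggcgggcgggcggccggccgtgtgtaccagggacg
Gen1: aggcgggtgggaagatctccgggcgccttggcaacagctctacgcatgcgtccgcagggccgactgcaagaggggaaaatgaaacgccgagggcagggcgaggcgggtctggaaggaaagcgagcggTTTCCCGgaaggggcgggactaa
Mcm6 lies on chr13:42404353-42404502 (minus strand), Mcm5 on chr19:13488663-13488812 (plus) and Cdkn3 on chr15:22502236-22502385 (plus). Ccnb2 lies on chr8:79981659-79981808 (minus), Prc1 on chr1:143659331-143659480 (plus), Mki67 on chr1:199952594-199952743 (minus) and Gen1 on chr6:39697481-39697630 (minus).

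Over windows of 300 bases (250 before the start and 50 after it), the CHR letters stood in 15 of 31 member promoters (48.4%), against 18.1% of the 27457 genes in the table and 12.3% of the 11700 that are on the arrays. A CCAAT box stood in 23 of 31 (74.2%), against 37.7% of the table and 37.3% of genes on the arrays. An E2F core stood in 9 of 31 (29.0%), against 7.08% and 9.93%. CHR and CCAAT together stood in 13 of 31 (41.9%), against 7.25% and 5.03%. None of the 3 motifs stood in 4 of 31, which are Aurka, Bub1, Ccne1 and Tk1.

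The counts by role are given as a description, and roles were not tested against each other. An E2F core was present in 5 of 6 promoters of the MCM genes and Pcna, in Mcm2, Mcm3, Mcm5, Mcm6 and Mcm7 but not Pcna. A CCAAT box also stood in 5 of these 6, all but Mcm2, and Mcm2 was the one to hold the CHR letters. In the chromosome, spindle and cytokinesis group all 10 promoters held a CCAAT box and 7 held the CHR letters. Among the mitotic cyclins, kinases and regulators, 4 of 6 held the CHR letters, in Ccnb2, Cdk1, Cdkn3 and Plk1, and 5 of 6 a CCAAT box. In the checkpoint and APC/C group 3 of 4 held the CHR letters and 2 of 4 a CCAAT box. Outside the MCM genes, E2F cores stood in Birc5, Cdk1, Tyms and Gen1. In Prc1 a CCAAT box began 50 bases and the CHR letters 18 bases before the start, and a further box stood 239 bases before it. In Ccnb2 boxes began 134, 101 and 68 bases and the CHR letters 43 bases before it, with a further CHR match at 214 bases. Gen1 had an E2F core 23 bases before its start and neither of the other motifs. E2F matches can overlap on opposite strands, as in Mcm6, and a CHR match can share letters with a CCAAT box, as in Mki67. A match describes the letters only.

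The comparisons of each dose with vehicle asked whether these transcripts differed after exposure. Gen1 fell at 50 mg/kg, and it was the only member to pass the test at any dose. Gen1 encodes a nuclease that cuts Holliday junctions, the 4-stranded intermediates of homologous recombination. Of the 38 members 1 fell and 0 rose at 50 mg/kg, in limma with Benjamini-Hochberg adjustment over 31042 probe sets, of which 0.934% were called (0.586% higher and 0.348% lower). At 15 mg/kg 0 of 38 passed, where 0.116% of all probe sets were called (0.0934% higher and 0.0226% lower), and at 0.1 mg/kg 0 of 38 passed, where 0% were called. At an unadjusted p under 0.05 the members numbered 0, 3 and 1 at 0.1, 15 and 50 mg/kg, or 0%, 7.89% and 2.63%. Over all genes these shares were 6.81%, 12.1% and 15.7%.

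**Figure D1:**
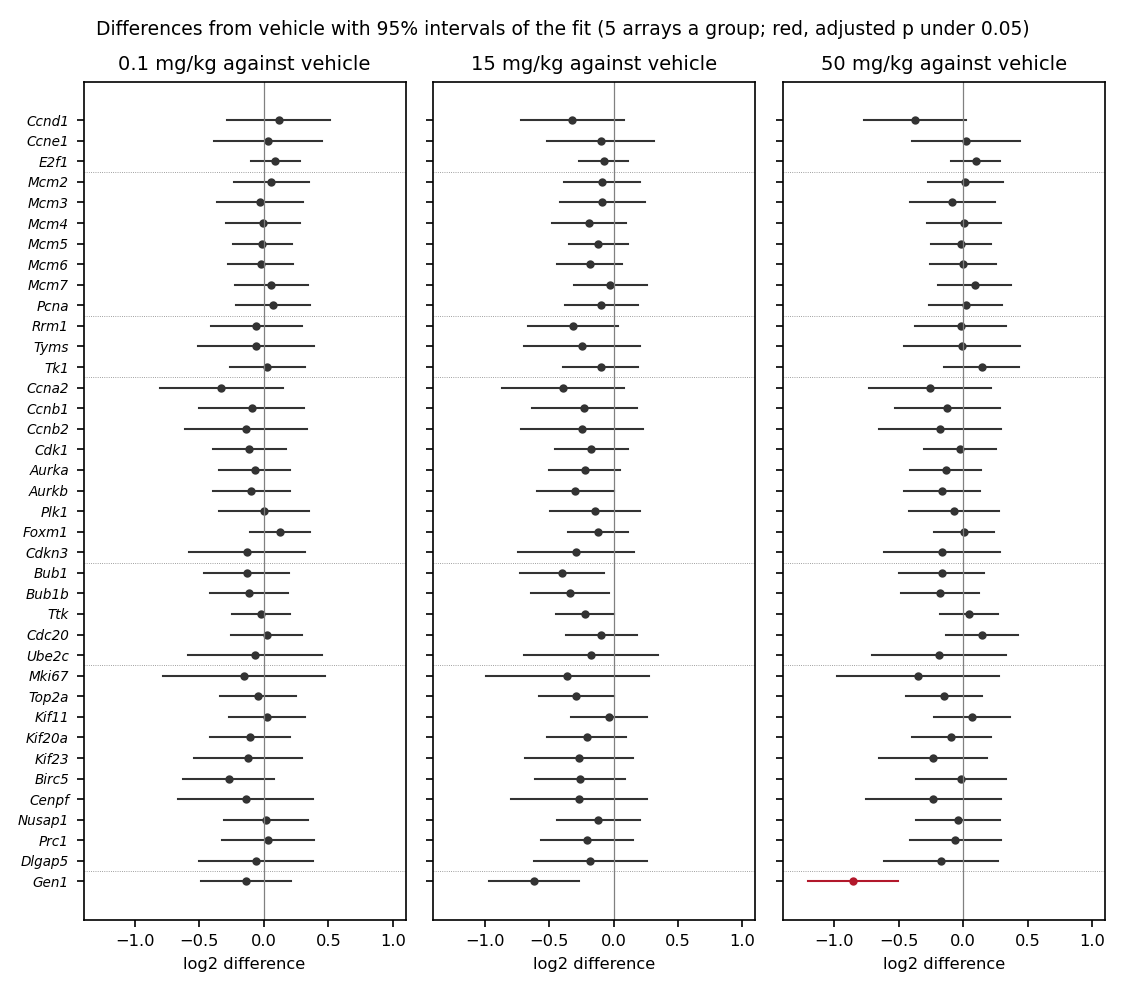
Log2 difference of each of the 38 members from vehicle at 0.1, 15 and 50 mg/kg per day, ordered by role, with the 95% interval of the fit as bars and 5 arrays a group. Gen1 at 50 mg/kg, in red at -0.86, is the only point with an adjusted p under 0.05, and at 15 mg/kg all 38 points lie below 0.

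The levels of Gen1 on the vehicle arrays were 4.17, 4.92, 4.59, 4.05 and 4.10 log2 units in replicates 1 to 5. At 0.1 mg/kg they were 4.47, 4.28, 4.11, 4.40 and 3.86, and at 15 mg/kg 3.87, 3.63, 3.59, 3.88 and 3.78. At 50 mg/kg they were 3.18, 3.88, 3.81, 3.19 and 3.49. Every array at 15 and at 50 mg/kg lay below every vehicle array, while the 0.1 mg/kg arrays overlapped both vehicle and 50 mg/kg. Among all genes, 0.795% at 15 mg/kg and 1.39% at 50 mg/kg lay wholly below vehicle in this way. No other member was wholly below or above vehicle at any dose, which 0.478% and 0.76% of genes were at 0.1 mg/kg.

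Against vehicle, Gen1 fell by 0.86 on the log2 scale at 50 mg/kg (1.81-fold lower, SE 0.17, adjusted p = 0.0171, n = 5 per group). The difference was -0.62 at 15 mg/kg (SE 0.17, adjusted p = 0.178) and -0.14 at 0.1 mg/kg (adjusted p = 0.914). A slope over the order of the 4 groups, per dose step, was -0.30 (SE 0.05, adjusted p = 0.00455), where 1.45% of probe sets were called (0.96% higher and 0.486% lower). Of the 38 members 1 passed in that slope, which is Gen1, and 5.26% had an unadjusted p under 0.05, against 17.4% of all genes. Against the 0.1 mg/kg arrays, which share no sample with vehicle, the 50 mg/kg arrays differed by -0.72 (adjusted p = 0.0566). There 0 of 38 members passed, 2 had an unadjusted p under 0.05 (5.26%, against 11.9% of all genes), and 0.644% of probe sets were called (0.583% higher and 0.0612% lower). The Gen1 arrays of these groups overlapped, while 1.06% of all genes lay wholly below.

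The Gen1 signal lay near the bottom of the scale, whose lowest value is 2.14, so it carries background and its fold may be understated. Its mean over all arrays was 3.96, where the array medians were at least 5.605 and the next-dimmest member was at 6.57. Whether a probe set this dim detects the Gen1 transcript, or reads a change in background, was not tested. The call at 50 mg/kg ended without replicate 4 of that dose (-0.78, adjusted p = 0.0605) and in a fit of only the vehicle and 50 mg/kg arrays (adjusted p = 0.105). It also ended without the 10 arrays with muscle or pancreas transcripts (-0.54), as did the slope's call (-0.19). That fit lacked 3 of 5 arrays at 50 mg/kg and 4 of 5 at 0.1 mg/kg. Fewer arrays and the muscle or pancreas transcripts cannot be told apart there as reasons for a lost call. After group means were taken out, Gen1 correlated little with the muscle list (r = 0.05), the pancreas list (r = -0.07) or the erythroid list (r = -0.14) and more with the endothelial list (r = 0.53), whose part in the result was not tested. The summed level of 11 muscle genes, in log2, spanned 7.63 to 13.76 in vehicle, 7.73 to 14.13 at 0.1 mg/kg, 7.67 to 14.16 at 15 mg/kg and 7.89 to 12.09 at 50 mg/kg. Kupffer cell genes also differed by dose. Of 8 markers 4 fell at 50 mg/kg in limma (median of the 8 -0.47, all below 0), where 60 of 14217 genes fell. Over the dose order 5 of the 8 fell, where 84 of 14217 genes fell. Among the 8 markers C1qb, a complement subunit made by macrophages, fell by 0.57 at 50 mg/kg (adjusted p = 0.00577). The summed level of the 8, in log2, spanned 12.99 to 13.25 in vehicle, 12.64 to 13.32 at 0.1 mg/kg, 12.79 to 13.16 at 15 mg/kg and 12.46 to 12.95 at 50 mg/kg, and 0 of the 8 were under 5 log2 units on every array. After group means their list had r = -0.045 with Gen1 and 0.02 with the member mean, and its part in any change at 50 mg/kg was not tested. Lower values at 50 mg/kg were not particular to Kupffer cell genes. All 6 granulocyte markers lay below 0 (median -0.48, 0 called), as did all 5 megakaryocyte markers (median -0.31, 0 called). Of 5 cholangiocyte markers 4 lay above 0. The genes outside the lists that varied most like Gen1 over the 20 arrays were Rarg (r = 0.74), Zscan12 (0.71) and Zfx (0.70). Those that ran most opposite were Notch2 (-0.72), Mertk (-0.72) and Mrps11 (-0.70). These are the extremes of 14217 genes, and whether they exceed what unrelated genes would give was not tested.

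Other genes of homologous recombination and Holliday junction processing gave no call. Of 27 measured, 0 passed limma's test at 50 mg/kg, 2 had an unadjusted p under 0.05 (7.41%, against the 15.7% of all genes), and 15 lay above vehicle and 12 below. Their differences ranged from -0.16 to 0.34 with a median of 0.01, where the median of all genes was 0.01.

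The 3 members of G1 and S phase entry gave no call at any dose. Ccnd1, the cyclin D1 that growth signals induce, had the smallest p of these 3 at 50 mg/kg. Its levels in vehicle were 9.04, 9.19, 9.15, 8.59 and 9.85, at 0.1 mg/kg 9.51, 9.15, 9.05, 9.51 and 9.18, at 15 mg/kg 9.18, 8.41, 8.68, 9.12 and 8.85, and at 50 mg/kg 8.70, 8.63, 8.49, 8.91 and 9.22. All 4 groups overlapped, and 4 of the 5 arrays at 50 mg/kg were below the vehicle arrays other than replicate 4. The difference at 50 mg/kg was -0.37 (95% interval -0.77 to 0.02, adjusted p = 0.418), and against 0.1 mg/kg it was -0.49 (adjusted p = 0.405).

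Ccne1 encodes cyclin E1, which with CDK2 starts S phase, and its vehicle mean of 7.26 ± 0.33 (SD, n = 5) compared with 7.28 ± 0.31 at 50 mg/kg. E2f1, an activating E2F factor, had 7.15 ± 0.21 and 7.24 ± 0.14, and its 5 arrays at 15 mg/kg lay within 7.05 and 7.12. Of 23 further genes of G1 and S phase entry, such as cyclins, their kinases and E2F partners, 0 passed at 50 mg/kg and 1 had an unadjusted p under 0.05 (4.35%, against 15.7% of all genes). Their median difference was -0.12, and 18 of 23 were below 0. Among them Myc, a growth-promoting transcription factor, had a difference of 0.19 (SE 0.18, adjusted p = 0.727).

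The 6 MCM helicase subunits and the clamp gave 0 calls at any dose and differences near 0. Pcna, the clamp that holds DNA polymerase on its template, had levels in vehicle of 11.32, 11.28, 11.68, 11.27 and 11.25, and at 50 mg/kg of 11.44, 11.37, 11.48, 11.47 and 11.13. At 0.1 mg/kg they were 11.18, 11.11, 11.83, 11.42 and 11.61, and at 15 mg/kg 11.16, 11.63, 11.45, 11.00 and 11.08. The groups overlapped, and replicate 3 was the highest array both in vehicle, where it stood apart, and at 0.1 mg/kg, where the arrays were spread. The difference at 50 mg/kg was 0.02 with a 95% interval of -0.27 to 0.31. Mcm2 was at 9.03 ± 0.24 in vehicle and 9.05 ± 0.11 at 50 mg/kg. The differences of the 7 genes at 50 mg/kg ran from -0.08 (Mcm3) to 0.09 (Mcm7), and at 15 mg/kg from -0.19 (Mcm4) to -0.02 (Mcm7).

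Around this core, Rfc2 rose. It encodes a subunit of the clamp loader that opens PCNA and places it on DNA. Its levels were 8.34, 8.26, 8.43, 8.12 and 8.41 in vehicle, 8.49, 8.18, 8.44, 8.45 and 8.42 at 0.1 mg/kg, 8.59, 8.38, 8.70, 8.50 and 8.50 at 15 mg/kg, and 8.77, 8.72, 8.51, 8.81 and 9.06 at 50 mg/kg. The lowest array at 50 mg/kg exceeded the highest vehicle array, as for 2.48% of all genes. The rise at 50 mg/kg was 0.46 (1.38-fold, SE 0.09, adjusted p = 0.0191), and the slope was 0.15 per dose step (adjusted p = 0.0095). The call at 50 mg/kg ended without any 1 of vehicle replicate 4 (adjusted p = 0.0594) and replicates 4 (0.0572) and 5 (0.0518) at 50 mg/kg, and with only the groups compared (0.0991). It and the slope's call also ended without the arrays with muscle or pancreas transcripts (a difference of 0.57 and a slope of 0.17). That fit lacked 3 of 5 arrays at 50 mg/kg.

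Rfc2 was the only one of 42 measured genes of origin licensing, DNA polymerase and clamp loading to pass at 50 mg/kg, and 5 of the 42 had an unadjusted p under 0.05 (11.9%, against 15.7% of all genes). The list's median was 0.04, with 31 above 0 and 11 below. Hells, a chromatin remodeller of replicating cells in the same list, rose against 0.1 mg/kg by 0.69 (adjusted p = 0.0437). Its levels at 50 mg/kg were 7.66, 7.74, 7.59, 7.94 and 7.60, above every 0.1 mg/kg array (6.66 to 7.37), as for 2.97% of genes. Against vehicle, whose arrays reached 7.72, the difference was 0.41 (adjusted p = 0.256). The call against 0.1 mg/kg was lost in 19 of 35 alternative fits. Apart from the fit without the muscle or pancreas arrays, which leaves 1 array at 0.1 mg/kg, adjusted p was at most 0.153 in those fits. Those lost by leaving out 1 array were vehicle replicates 1 and 2, replicates 2, 3 and 5 at 0.1 mg/kg, replicates 1, 3 and 4 at 15 mg/kg and each of the 5 at 50 mg/kg.

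**Figure D2:**
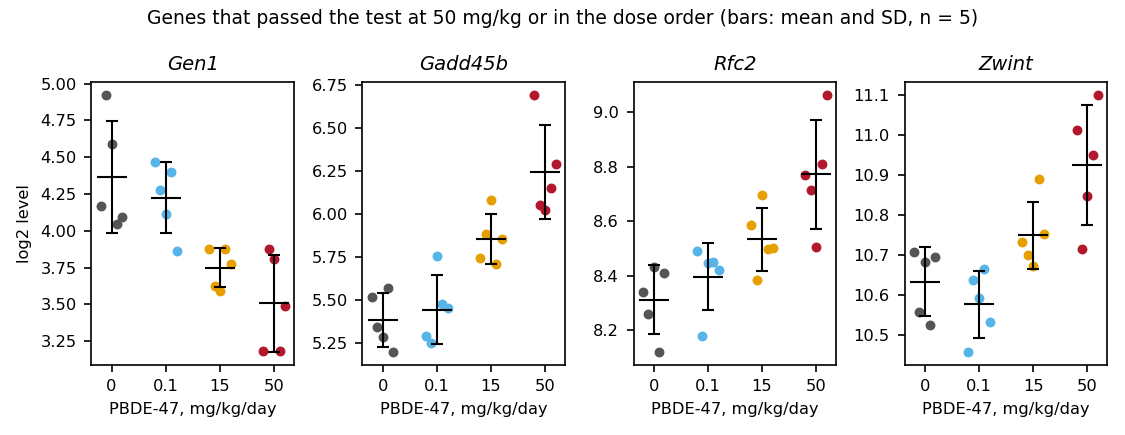
Log2 level of Gen1 and of the cell cycle genes outside the list that passed the test at 50 mg/kg or over the dose order, on each of 20 arrays by dose, with group means and SDs (n = 5) as bars. Gen1 declines from a mean of 4.37 in vehicle to 3.51 at 50 mg/kg, and Gadd45b goes from 5.38 to 6.25. Each panel has its own vertical scale, which does not start at 0.

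Nucleotide supply was represented by Rrm1, the large subunit of ribonucleotide reductase, Tyms, which makes thymidylate, and Tk1, a thymidine kinase of S phase. Rrm1 was at 8.68 ± 0.28 in vehicle, 8.37 ± 0.37 at 15 mg/kg and 8.66 ± 0.15 at 50 mg/kg. Tyms had differences of -0.24 at 15 mg/kg and -0.01 at 50 mg/kg, and Tk1 of -0.10 and 0.14. None of the 3 passed at any dose, and none of 9 further genes did, 2 of which had an unadjusted p under 0.05 at 50 mg/kg (22.2%, against 15.7% of all genes).

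Of the mitotic cyclins, kinases and regulators 0 of 9 passed at any dose, and all 9 had differences below 0 at 15 mg/kg. Cdk1, the kinase that starts mitosis, had levels in vehicle of 9.54, 8.97, 9.44, 9.34 and 9.19, at 0.1 mg/kg of 8.92, 9.04, 9.58, 9.12 and 9.28, at 15 mg/kg of 9.38, 9.29, 9.18, 8.91 and 8.86, and at 50 mg/kg of 9.56, 9.04, 9.19, 9.35 and 9.24. The 4 groups overlapped almost wholly. Its difference at 50 mg/kg was -0.02 (95% interval -0.30 to 0.26). Cyclin A2, which carries cells from S phase into mitosis, had the largest difference of this group at 15 mg/kg (Ccna2, -0.39, adjusted p = 0.501).

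Cdkn3, a phosphatase that acts on cyclin-dependent kinases, was at 9.39 ± 0.30 in vehicle and 9.10 ± 0.49 at 15 mg/kg, where its arrays spread from 8.48 to 9.74. Aurka and Aurkb, the aurora kinases of the spindle poles and of the centromeres, had differences of -0.14 and -0.16 at 50 mg/kg. Plk1, a kinase active throughout mitosis, had -0.07, and Foxm1, a factor that activates mitotic genes, had 0.01.

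Among the spindle checkpoint genes and those of the APC/C, the ligase that ends mitosis, Bub1 and Bub1b had an unadjusted p under 0.05 at 15 mg/kg. Their differences there were -0.40 (adjusted p = 0.327) and -0.34 (adjusted p = 0.362), and at 50 mg/kg -0.17 and -0.18. Both encode proteins of the spindle checkpoint. Ttk, the checkpoint kinase MPS1, was at 7.06 ± 0.21 in vehicle, 6.83 ± 0.18 at 15 mg/kg and 7.10 ± 0.18 at 50 mg/kg. Cdc20, which activates the APC/C, had the largest positive difference of all members at 50 mg/kg, each by its brightest probe set. It was 0.15 (95% interval -0.13 to 0.42, adjusted p = 0.700). The further probe sets of Cdc20 gave 0.0721, 0.0088, -0.0029 and, for a dim one, 0.155.

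In the chromosome, spindle and cytokinesis group, Mki67 had the widest spread of all members. It encodes the Ki-67 protein that coats mitotic chromosomes and serves as a marker of dividing cells. Its levels in vehicle were 10.59, 10.15, 10.93, 10.43 and 10.02, at 0.1 mg/kg 9.47, 10.05, 11.09, 10.05 and 10.69, at 15 mg/kg 9.92, 10.82, 10.45, 9.22 and 9.93, and at 50 mg/kg 10.09, 10.31, 10.65, 9.91 and 9.41. The highest array, at 0.1 mg/kg, was 3.65-fold above the lowest, at 15 mg/kg, and every group overlapped every other. The difference at 50 mg/kg was -0.35 (95% interval -0.98 to 0.28, adjusted p = 0.683).

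Top2a, the topoisomerase that untangles chromosomes, was at 9.13 ± 0.24 in vehicle, 8.84 ± 0.31 at 15 mg/kg (adjusted p = 0.420) and 8.98 ± 0.07 at 50 mg/kg. Cenpf, a kinetochore protein, ran from 7.15 to 8.79 within the 0.1 mg/kg group alone. Of the 10 genes in this group 0 passed at any dose, and their differences at 50 mg/kg ran from -0.35 (Mki67) to 0.07 (Kif11, a spindle motor). Of 49 further mitotic genes, 0 passed at 50 mg/kg, 4 had an unadjusted p under 0.05 (8.16%, against 15.7% of all genes), and 39 were below 0 with a median of -0.08.

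Zwint, a kinetochore protein among those 49, rose over the dose order by 0.11 per step (SE 0.02, adjusted p = 0.0222) and by 0.35 against 0.1 mg/kg (adjusted p = 0.0237). Its arrays at 50 mg/kg, at 11.01, 10.72, 10.85, 10.95 and 11.10, all exceeded the vehicle arrays (10.52 to 10.71), as for 2.48% of genes. The difference from vehicle was 0.29 (adjusted p = 0.0581). The slope's call ended without any 1 of vehicle replicates 2 and 4 and replicates 1, 4 and 5 at 50 mg/kg, with adjusted p between 0.0522 and 0.062. Against 0.1 mg/kg the call ended without any 1 of replicates 1, 3 and 5 at 0.1 mg/kg and replicates 1, 4 and 5 at 50 mg/kg, with adjusted p between 0.0512 and 0.0793. It also ended with only the groups compared (0.119) and with muscle and pancreas covariates (0.0702). Both calls ended without the arrays with muscle or pancreas transcripts (a difference of 0.32 and a slope of 0.095). That fit lacked 3 of 5 arrays at 50 mg/kg and 4 of 5 at 0.1 mg/kg.

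The other gene to rise belongs to the list of cell cycle inhibitors and p53 targets, with 22 measured. Gadd45b, a stress-induced protein that can restrain the cell cycle, had vehicle levels of 5.52, 5.35, 5.29, 5.57 and 5.20. At 0.1 mg/kg they were 5.29, 5.25, 5.76, 5.48 and 5.46, at 15 mg/kg 5.75, 5.88, 6.08, 5.71 and 5.86, and at 50 mg/kg 6.70, 6.05, 6.03, 6.15 and 6.30. The 15 and 50 mg/kg arrays all exceeded the highest vehicle array, as for 1.43% and 2.48% of all genes. The rise was 0.86 at 50 mg/kg (1.81-fold, SE 0.12, adjusted p = 0.000909), 0.80 against 0.1 mg/kg (adjusted p = 0.00144) and 0.30 per dose step (adjusted p = 0.000168), and the difference at 15 mg/kg was 0.47 (adjusted p = 0.147). Among the alternatives run, these calls were lost only without the arrays with muscle or pancreas transcripts. That fit lacked 3 of 5 arrays at 50 mg/kg and 4 of 5 at 0.1 mg/kg. Its differences were 0.78 at 50 mg/kg and 0.42 against 0.1 mg/kg, with a slope of 0.24.

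Of the 22 inhibitors and p53 targets 1 rose and 0 fell at 50 mg/kg, and 6 had an unadjusted p under 0.05 (27.3%, against 15.7% of all genes). Cdkn1a, the p21 inhibitor that p53 induces, had a difference of -0.09 (SE 0.18, adjusted p = 0.896), and Ccng1, another p53 target, of -0.21 (SE 0.17, adjusted p = 0.661). Over all 6 lists, 2 of 172 measured pathway genes passed at 50 mg/kg (1.16%), both higher. Of all 14217 genes 145 passed higher (1.02%, and 0.586% of all probe sets) and 60 passed lower. Over the dose order 3 of the 172 passed (1.74%), all higher. Of all genes 228 passed higher there (1.60%, and 0.96% of probe sets) and 84 lower. Against 0.1 mg/kg 3 of the 172 passed (1.74%), all higher. Of all genes 143 passed higher there (1.01%, and 0.583% of probe sets) and 13 lower. At an unadjusted p under 0.05 the 172 numbered 20 at 50 mg/kg (11.6%, against 15.7% of all genes). At 0.1 and 15 mg/kg 0 of 172 passed limma, with 3 and 20 at an unadjusted p under 0.05. These are 1.74% and 11.6%, against 6.81% and 12.1% of all genes.

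Leaving Gen1 aside, the other 37 members had adjusted p from 0.418 to 0.999 at 50 mg/kg, 0.327 to 0.96 at 15 mg/kg and 0.792 to 0.999 at 0.1 mg/kg. Their 95% intervals reached no farther than -0.98 and 0.44 at 50 mg/kg and lay within 1 log2 unit of 0 for 37 of 37 at each dose. They lay within 1.5-fold for 28 of 37 at 50 mg/kg, 21 at 15 mg/kg and 31 at 0.1 mg/kg. With 5 arrays a group, differences of any size inside a member's interval are not excluded. At 15 mg/kg the intervals of Bub1 and Bub1b, which are not adjusted for the number of tests, left out 0. The 15 further probe sets of 10 members gave 0 calls in the 5 contrasts.

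The median difference of the 38 members was -0.05 at 0.1 mg/kg, -0.21 at 15 mg/kg and -0.07 at 50 mg/kg, where the median of all genes was 0.00, 0.01 and 0.01. Members below 0 numbered 25, 38 and 27, against 48.3%, 48.3% and 47.2% of all genes. These 3 comparisons share the vehicle arrays, and the members vary together, so the counts are not 38 separate observations. The mean of the 38 members was 8.43 ± 0.21 in vehicle (SD, n = 5), 8.38 ± 0.28 at 0.1 mg/kg, 8.22 ± 0.27 at 15 mg/kg and 8.34 ± 0.12 at 50 mg/kg. By array it was lowest in replicate 4 at 15 mg/kg (7.92), followed by replicate 5 of that dose, and highest in replicate 3 at 0.1 mg/kg (8.82) and replicate 3 of vehicle (8.76). The ranges of all 4 groups overlapped.

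**Figure D3:**
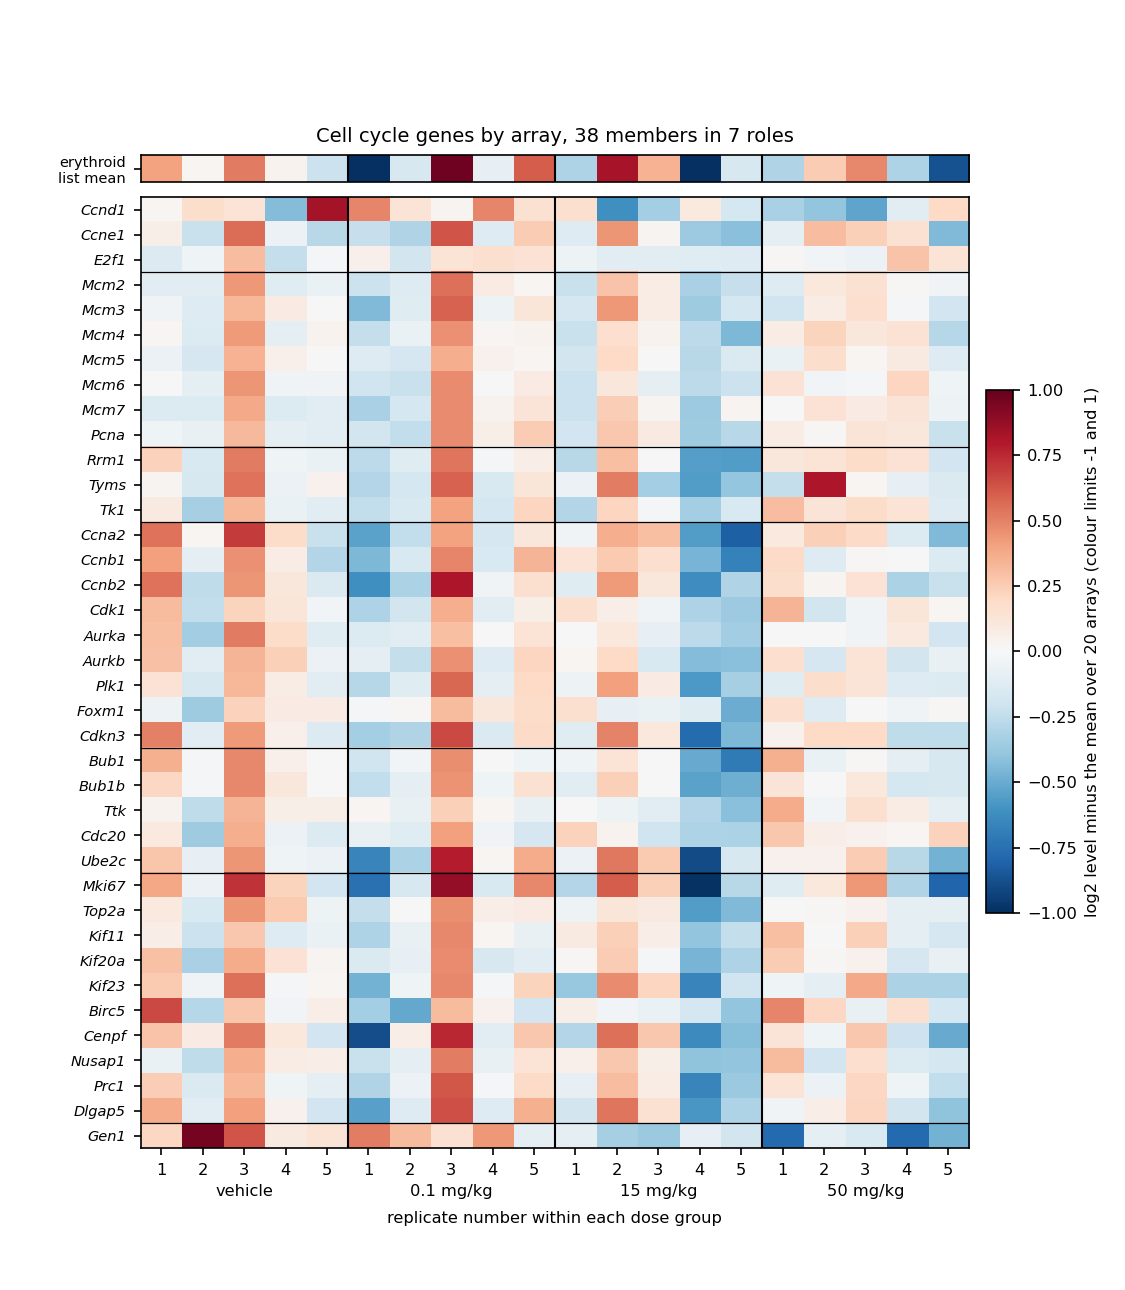
Log2 level of each of 38 members on 20 arrays minus its mean over all arrays, ordered by role, with the mean of 17 erythroid genes above. Colours saturate at -1 and 1. Replicate 3 of vehicle and replicate 3 at 0.1 mg/kg are high for most rows, replicates 4 and 5 at 15 mg/kg are low, and Gen1 at the bottom follows the dose groups instead.

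Spread between arrays of a group was larger for these genes than for most. The SD left after group means had a median of 0.27 log2 units over the members, against 0.15 over all genes, and 37 of 38 members were above the median of all genes. It was largest for Mki67 (0.53) and Cenpf (0.44) and smallest for E2f1 (0.145) and Ttk (0.18).

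The members varied together from array to array within groups. After group means were taken out, the 703 pairs had a median correlation of 0.76 over 20 arrays (quartiles 0.57 and 0.85), against 0.00 for pairs of all genes. Of the member pairs 79.7% exceeded 0.5, against 3.75% of all pairs. Mki67 and Dlgap5, a spindle protein, had the highest correlation (0.98), followed by Plk1 and Cdkn3 (0.96). All pairs share the same 20 arrays and their RNA, so these values are a description with no test.

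Closest to the mean of the other members were Bub1b (r = 0.98), Rrm1 (0.97) and Prc1 (0.97), a microtubule bundler of cytokinesis. E2f1 (0.29), Gen1 (-0.25) and Ccnd1 (-0.54) stood apart. Ccnd1 ran opposite to Mki67 (-0.70) and Cenpf (-0.67), and its 2 further probe sets tracked its main one (r = 0.85 and 0.87). Outside the lists, the genes most like the member mean were Anp32e (0.96), Mms22l (0.95) and Sphk1 (0.95).

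**Figure D4:**
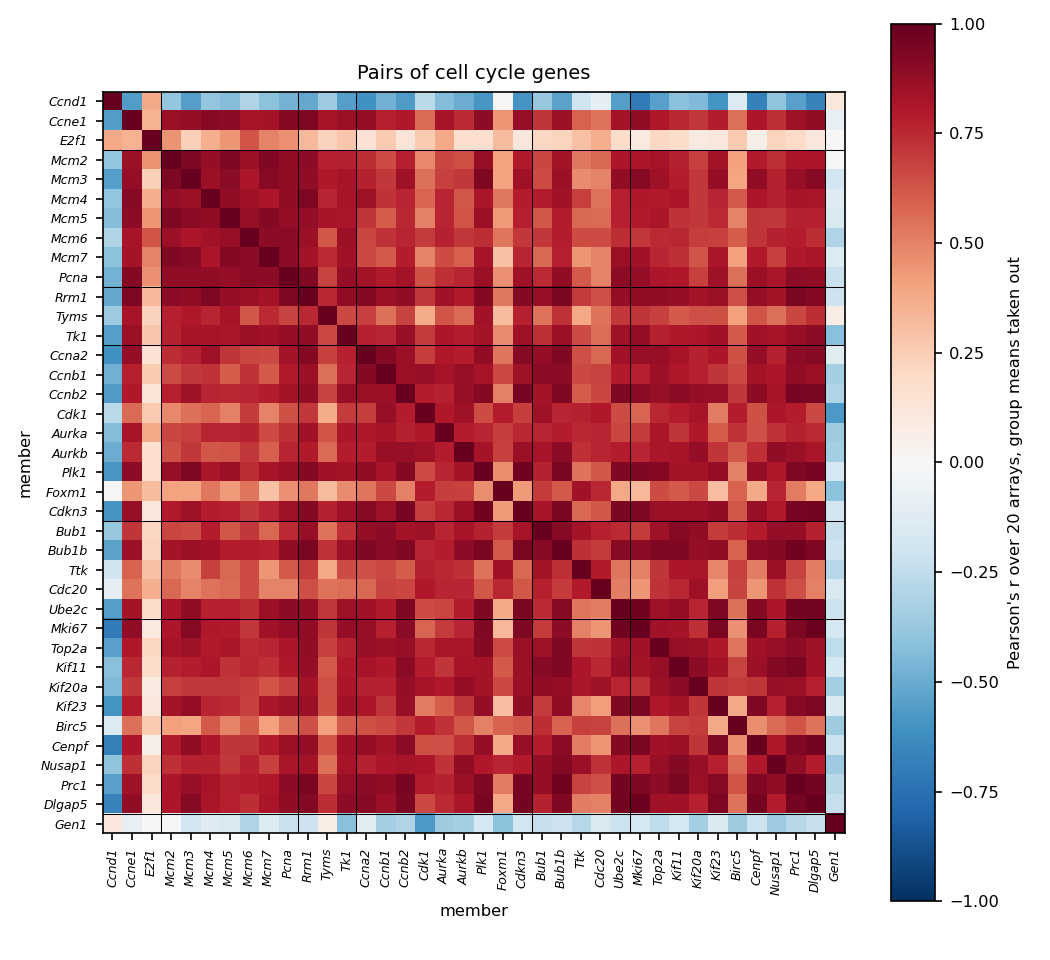
Pearson's r between pairs of the 38 members over 20 arrays after group means were taken out, ordered by role, from -1 in blue to 1 in red. Most pairs are red (median 0.76), whereas Ccnd1 and Gen1 form blue stripes and E2f1 a pale one.

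Red cell precursor transcripts varied with the members. The erythroid list had 17 of 24 genes measured, none of them a member, and 0 of 17 passed limma in any of the 5 contrasts. At an unadjusted p under 0.05 there was 1 at 0.1 mg/kg (5.88%, against 6.81% of all genes). There were 0 in the other 4 contrasts, where 11.9% to 17.4% of all genes were. The list's median SE against vehicle was 0.41, against 0.09 for all genes, so these counts do not show that erythroid genes were unchanged. The list's mean ranged from 7.58 (15 mg/kg, replicate 4) to 9.58 (0.1 mg/kg, replicate 3), with 8.40 to 9.14 in vehicle and 7.74 to 9.10 at 50 mg/kg. The summed level of the 17 genes, in log2, spanned 14.77 to 15.19 in vehicle, 14.33 to 15.50 at 0.1 mg/kg, 14.28 to 15.38 at 15 mg/kg and 14.32 to 15.23 at 50 mg/kg. None of the 17 was under 5 log2 units on every array. The list's median difference from vehicle was -0.07, -0.27 and -0.31 at 0.1, 15 and 50 mg/kg.

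Over the 20 arrays the member mean and the erythroid mean correlated with r = 0.87 after group means were taken out, r = 0.85 without that step (Spearman's rho 0.85) and 0.76 without the 2 arrays farthest from the erythroid median. Within the 4 groups of 5 arrays r lay between 0.86 and 0.94. In a sample of whole liver, fewer cells of a type and less RNA per cell cannot be told apart. The part of erythroid cells in the members' values was not tested.

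The tie to the erythroid list differed by gene. It was closest for Mki67 (r = 0.98), Dlgap5 (0.96) and Ube2c (0.96), the ubiquitin-conjugating enzyme of the APC/C. Of the 38 members 30 exceeded 0.5, as did 8.65% of all genes. It was weak for Foxm1 (0.22), Cdc20 (0.34), Ttk (0.37), Birc5 (0.41), which encodes survivin, and Cdk1 (0.50), close to 0 for E2f1 (0.06) and negative for Ccnd1 (-0.67).

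Other cell type lists were less close to the member mean. They reached r = 0.55 for the megakaryocyte list, 0.51 for T and NK cells, of whose 7 markers 4 were under 5 log2 units on every array, and 0.28 for granulocytes. The hepatocyte list gave -0.16 and the endothelial list -0.63. With the erythroid mean as a covariate, the members' median SD went from 0.27 to 0.16 and the median pair correlation from 0.76 to 0.51, while the SD of all genes went from 0.15 to 0.14. In that fit Ccnd1 passed over the dose order (-0.19 per step, adjusted p = 0.0491), as did Gen1, and no other member did. Without the covariate the slope of Ccnd1 was -0.16 in limma (adjusted p = 0.232). Its 2 further probe sets then had -0.11 (adjusted p = 0.49) and -0.15 (adjusted p = 0.355).

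**Figure D5:**
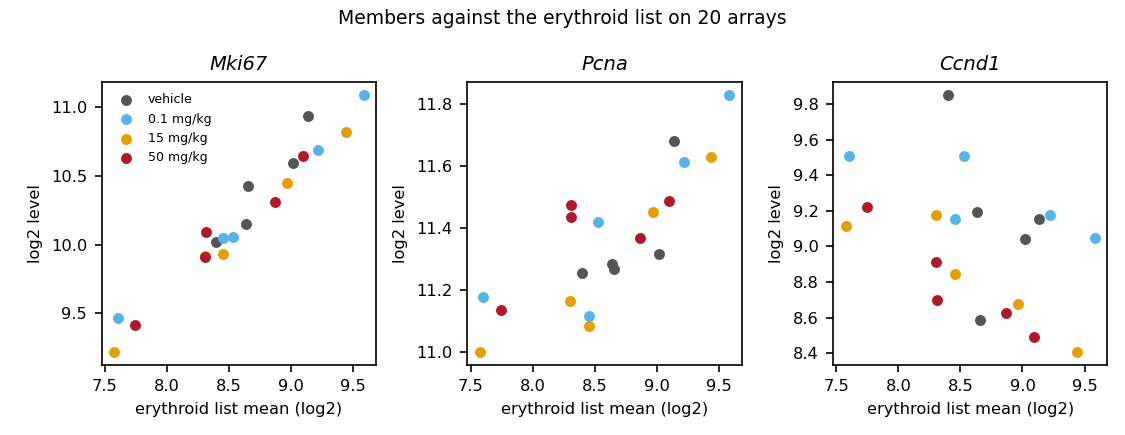
Log2 level of Mki67, Pcna and Ccnd1 against the mean of 17 erythroid genes on each of 20 arrays, coloured by dose group. Mki67 and Pcna climb with the erythroid mean over the 20 arrays (r = 0.98 and 0.85 after group means), and Ccnd1 declines (r = -0.67). Axes do not start at 0.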

How the data were processed

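The authors deposited log2 expression values for 20 arrays and 31099 probe sets, and the submitters' processing notes name RMA as the method, which corrects background, quantile-normalizes and summarizes probes by median polish. Its version, and whether arrays were normalized jointly, is not given in the sources used here. The 100 ng of total RNA per array was amplified per the labels' protocols. Dim values carry background.

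After 57 control probe sets were dropped, 31042 remained and were tested. Of these, 20826 had 1 gene symbol, 436 several and 9780 none, and 20758 were matched by gene ID to RefSeq's GRCr8 table. The brightest probe set naming a gene alone stood for that gene. Groups and replicate numbers came from the sample titles. A linear model with 4 group means was fitted by lmFit and eBayes of limma 3.58.1 (R 4.3.3), two-sided. P-values were Benjamini-Hochberg adjusted over all probe sets within a contrast and called under 0.05. Doses were compared with vehicle, 50 with 0.1 mg/kg, and the dose order was fitted as a slope. The submitters compared doses with vehicle in R/maanova, which was not used here.

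The members, gene lists and tests were chosen with earlier results of these data known, Gen1's fall included, so that fall is not independent evidence. Genes were named by rule: members passing the test, those with the smallest p or the largest or smallest spread, a set of index genes, and pathway genes passing the test, with Cdkn1a, Myc and Ccng1. Some are given on every array, others by means, ranges or differences. Group means are arithmetic means of log2 values with SDs. Correlations are Pearson's r of values minus group means. The code was tested on simulated data. Alternatives were blocks, other normalizations, filters, variance models, covariates, probe set choices and arrays left out. The erythroid covariate for the pair correlations was added after seeing the data. Python 3.11.15 with matplotlib 3.10.9 drew the figures.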

Additional observations from a re-analysis of the deposited data

Results flagged for a closer look

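In 11 of 184 groups of 5 arrays (5.98%), 1 array stood apart from the other 4 by Dixon's criterion, which flags about 5% of groups by chance. These results are given as values. In vehicle, replicate 3 was highest for Mcm2 (9.46, next 8.97), Mcm6 (9.54), Mcm7 (10.55), Pcna (11.68) and Tyms (7.11). At 0.1 mg/kg, replicate 3 was highest for Cdc20 (8.84) and Kif20a (8.48), and replicate 2 was lowest for Rfc2 (8.18). At 50 mg/kg, replicate 5 was lowest for Mcm4 (8.93) and Rrm1 (8.39), and replicate 2 was highest for Tyms (7.38, next 6.59).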

How the results depend on the processing

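The replicate numbers showed no pairing of the arrays in whole-array correlations, which cannot exclude a shared source. Same-numbered arrays of different groups had correlations of deviations from -0.36 to 0.29 (median 0.00). Of these pairs 10 of 30 exceeded 0.1, as did 39 of 120 differently numbered pairs, and 4 of 20 arrays were nearest to one of their own number. With the replicate number as a block, 1 member passed at 50 mg/kg (Gen1, -0.86, adjusted p = 0.0229) and 1 over the dose order, as without it. Pairs from different groups whose description numbers share a first digit had a median of 0.042 (-0.42 to 0.48), and 17 of 37 exceeded 0.1. The count of members passing at 50 mg/kg was 0 with only the groups compared, with a mean of at least 6 or 5 (Gen1 is then not tested), and without the muscle or pancreas arrays, and 0 to 1 with single arrays left out. Against 0.1 mg/kg it was 1 with a block for the first digit of the number in each array's description, with array weights and with 1 probe set per gene, and 0 to 1 with single arrays left out. Over the dose order it was 0 under both filters and without the muscle or pancreas arrays, and 2 with the erythroid covariate, which took the median pair correlation to 0.51. Without the muscle or pancreas arrays, which leaves 1 array at 0.1 mg/kg, the median member difference was 0.35 at 0.1 mg/kg and -0.52 for 50 against 0.1 mg/kg. The median at 0.1 mg/kg ran from -0.14 to 0.0433 with single arrays left out and from -0.0652 to 0.35 elsewhere. At 50 mg/kg it ran from -0.12 to 0.0035 and from -0.23 to 0.0367, and for 50 against 0.1 mg/kg from -0.11 to 0.0858 and from -0.52 to 0.039, so these medians changed sign. The median at 15 mg/kg was below 0 in every alternative run (-0.28 to -0.12).

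Differences near 0 changed sign, none of them passing the test. Without the muscle or pancreas arrays these were Cdc20 over the dose order (-0.0174) and, at 50 mg/kg, Ttk (-0.18), Ccne1 (-0.13) and Pcna (-0.13). With the dimmest probe set they were Ttk (-0.0011) and Cdkn1a (0.15) at 50 mg/kg. With array weights they were Cdk1 (0.014) at 50 mg/kg, and Cdk1 (0.0034) and Ttk (0.0016) over the dose order. With the erythroid covariate they were Cdk1 (0.0337) and Cdkn3 (0.007) at 50 mg/kg, and Ttk (0.0055), Cdk1 (0.0066), Ccne1 (0.0432), Mcm2 (0.023) and Pcna (0.0231) over the dose order. With a further quantile normalization they were Ttk (0.006) and Ccne1 (0.0026) over the dose order, and Myc against 0.1 mg/kg (-0.0041), which was also -0.0526 with the digit block and -0.0324 with muscle and pancreas covariates. With single arrays left out, differences at 50 mg/kg ranged over -0.0283 to 0.12 (Ttk), -0.10 to 0.0372 (Cdk1), -0.0534 to 0.16 (Ccne1), -0.0155 to 0.12 (Mcm2) and -0.0074 to 0.0997 (Pcna). Slopes ranged over -0.0035 to 0.0376 (E2f1), -0.0282 to 0.0164 (Ttk), -0.0372 to 0.0052 (Cdk1), -0.0292 to 0.0338 (Ccne1), -0.0192 to 0.0229 (Mcm2), -0.0197 to 0.0135 (Pcna) and -0.0071 to 0.0732 (Myc), and Myc against 0.1 mg/kg over -0.14 to 0.13.

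Over all probe sets, calls at 50 mg/kg numbered 106 to 276 with single arrays left out, 89 with only the groups compared and 3 without the muscle or pancreas arrays. At 15 mg/kg they numbered 14 to 44, 11 and 3. The causes were not tested. The number of arrays limits the precision.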
